A study of Mus musculus with 14 samples.

Results

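The cytosolic ribosome is built from ribosomal RNA and from the proteins that *Rpl* genes encode for its large subunit and *Rps* genes for its small subunit. The genes described here are those whose name in the scanner files is *Rpl* or *Rps* followed by a protein number, with *Rpsa* and the stalk proteins *Rplp0*, *Rplp1* and *Rplp2* included, and with pseudogenes and the S6 kinases left out. This rule gave 80 of 36161 gene names, 49 of the large and 31 of the small subunit, and it uses no measured value. They were read by 180 of 55681 probes, and each gene was read from its brightest probe. Of the 80 genes, 77 were well above background on all 14 arrays. The other 3 were *Rpl39l* (5 of 14 arrays), *Rpl10l* (1 of 14, CT26 replicate 1) and *Rpl3l* (0 of 14), which are paralogues with a restricted tissue range. A signal is given throughout as the log2 of the background-subtracted intensity minus the 75th percentile of the array. Levels are compared between arrays, not between genes, except where differences are set against mean signal.

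The study hybridized RNA of mouse intestine and of a mouse tumor cell line to one-color Agilent arrays, 1 array per sample. Healthy small intestine (3 arrays) was whole tissue of adult C57BL/6J mice, listed under different animals. Tissue adjacent to adenomas (2 arrays) and macroscopic adenomas (3 arrays) were whole tissue of APCmin/+ mice, which carry a truncating *Apc* mutation on the C57BL/6J background and develop intestinal polyps. By the study's sample list all of these pieces came from 1 mouse, so that the spread between them is that within an animal. The paper's methods mention several APCmin/+ mice for the study as a whole and do not assign these arrays to them. Colon (3 arrays) was whole tissue labelled C57BL/6J, although that list places 1 colon sample under an APCmin/+ mouse, and CT26 (3 arrays) is a line of undifferentiated colon carcinoma cells from a BALB/c mouse. Nothing says that the CT26 arrays came from separate cultures, so the p-values measure the spread between these samples, which may be technical.

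The share of probes well above background ran from 46.85% on colon replicate 3 to 58.21%, and 0 probes of these genes were saturated. The library labelled colon replicate 3 stood apart from the other colon arrays. A list of 10 small intestine enterocyte markers had a median signal of 4.64 on it, against -2.48 and -2.99 on colon replicates 1 and 2 and 6.02 to 7.64 on small intestine arrays, while 10 colonocyte markers had a median of -3.88 on it, against 4.73 and 2.03. Its place among the colon arrays touches each comparison with colon, and differences from colon are therefore given with and without it. In CT26, the 8 epithelial markers had medians of -5.69 to -4.87 and 3 to 4 of them were above background, whereas all 8 were so on every tissue array. Of the 14 arrays, small intestine replicate 3 had the lowest signals of ribosomal protein genes.

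Ribosomal protein messages belong to the most abundant of a growing cell. In vertebrates they begin with a C and a run of pyrimidines, the 5' terminal oligopyrimidine tract, through which the mTOR pathway and Larp1 control their translation, and the synthesis of the proteins is tied to ribosomal RNA transcription and to Myc. In the intestine, crypt cells divide and differentiated villus cells do not, and *Apc* loss activates the Wnt pathway, which has *Myc* among its targets. The arrays measure RNA level, not translation, and in whole tissue fewer cells of a type and less RNA per cell cannot be told apart.

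The sequences around the annotated starts show what these genes share at that place and how the paralogues differ from the genes they resemble. RefSeq promoter windows of GRCm38.p6 (250 bases before the start and 50 from it) were at hand for 59 of the 80 genes, with the most upstream start taken where a gene had several. The lines below give 100 bases before the start and 20 from it, 5' to 3', for the 5 genes with the largest called differences between adenomas and small intestine, then for *Rps27* and *Rps27l* and for *Rpl39* and *Rpl39l*. Capitals mark matches on either strand. The first motif was CCGGAAG, the core bound by factors of the ETS family. AAGATGG was searched as the core of YY1 sites. The third was TATAAA, the letters of a TATA box, at any place in the window. In the lines below it began 3 bases after the annotated start base in *Rpl36a* and 96 bases before it in *Rpl39*. The letters alone do not make these matches TATA boxes. A run of pyrimidines is also in capitals where it opens with C at the annotated start and has at least 4 more. Matches of different motifs do not overlap in these lines.
Rps2 (chr17:24719963-24720082, plus strand): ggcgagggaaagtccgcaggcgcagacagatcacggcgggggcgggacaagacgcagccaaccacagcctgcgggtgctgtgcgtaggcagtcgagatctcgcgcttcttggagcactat
Rpl12 (chr2:32961612-32961731, plus strand): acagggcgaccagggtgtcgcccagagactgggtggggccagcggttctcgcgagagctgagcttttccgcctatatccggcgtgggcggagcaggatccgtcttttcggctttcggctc
Rpl36a (chrX:134585554-134585673, plus strand): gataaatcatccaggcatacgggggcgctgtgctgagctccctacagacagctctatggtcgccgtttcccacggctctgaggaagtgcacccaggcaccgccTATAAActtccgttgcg
Rpl14 (chr9:120571417-120571536, plus strand): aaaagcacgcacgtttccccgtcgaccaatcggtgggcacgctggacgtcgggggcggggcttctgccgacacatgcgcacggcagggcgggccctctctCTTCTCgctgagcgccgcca
Rpl6 (chr5:121204401-121204520, plus strand): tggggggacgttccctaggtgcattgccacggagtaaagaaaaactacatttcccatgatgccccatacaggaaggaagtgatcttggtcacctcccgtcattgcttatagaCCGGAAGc
Rps27 (chr3:90213629-90213748, minus strand): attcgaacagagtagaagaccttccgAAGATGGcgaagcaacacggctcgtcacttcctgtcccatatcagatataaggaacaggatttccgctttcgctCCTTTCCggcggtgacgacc
Rps27l (chr9:66945986-66946105, plus strand): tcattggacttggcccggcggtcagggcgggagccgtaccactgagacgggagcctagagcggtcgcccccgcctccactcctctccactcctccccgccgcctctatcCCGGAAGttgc
Rpl39 (chrX:37085203-37085322, minus strand): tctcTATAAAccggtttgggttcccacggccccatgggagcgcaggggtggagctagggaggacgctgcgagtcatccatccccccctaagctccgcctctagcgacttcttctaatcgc
Rpl39l (chr16:10170128-10170247, plus strand): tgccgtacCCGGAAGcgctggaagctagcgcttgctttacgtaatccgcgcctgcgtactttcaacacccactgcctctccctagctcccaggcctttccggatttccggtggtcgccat
In the whole windows, CCGGAAG was found in 24 of 59 ribosomal protein genes (40.7%), against 9.14% of all 27025 genes with a window. AAGATGG was found in 9 of 59 (15.3%, against 6.46%), and TATAAA in 6 of 59 (10.2%, against 14.2%). In the last 100 bases before the start and 50 from it, TATAAA was found in 5 of 59 (8.47%, against 7.25%), so that its order to all genes turned with the width of the window. A C with at least 4 pyrimidines after it stood at the annotated start of 12 of 59 (20.3%, against 2.48% of all genes), and *Rpl14* and *Rps27* are examples. When the C with at least 6 pyrimidines could begin up to 20 bases to either side, the shares were 54.2% and 21.1%. The windows were also richer in CpG, with a median of 21 against 7 in 300 bases, and had a median GC content of 57% against 52.7%. A match is a description of these letters only, no binding was measured, and an annotated start need not be the start used in intestine.

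Ribosomal protein genes varied together from array to array, and by their median scaled signal the arrays of CT26 lay above those of the tissues. Over 77 genes, the median signal was 8.89 ± 0.144 (SD, n = 3) in CT26, 8.25 ± 0.169 (SD, n = 3) in adenomas, 8.19 ± 0.312 (SD, n = 3) in colon, 8.12 ± 0.0919 (SD, n = 2) in adjacent tissue and 7.87 ± 0.377 (SD, n = 3) in small intestine. The array medians ran from 8.73 to 9.02 in CT26 and from 7.47 to 8.46 in the tissues, so the tissue groups overlapped each other and did not overlap CT26. CT26 had the highest group mean for 73 of 77 genes and small intestine the lowest for 66. For 53 of 77 genes (68.8%) every CT26 array lay above all 11 tissue arrays, which held for 34.5% of all 16023 genes above background on all arrays. Without colon replicate 3 this count was 59 of 77 (76.6%), against 35.7% of all genes.

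**Figure D1:**
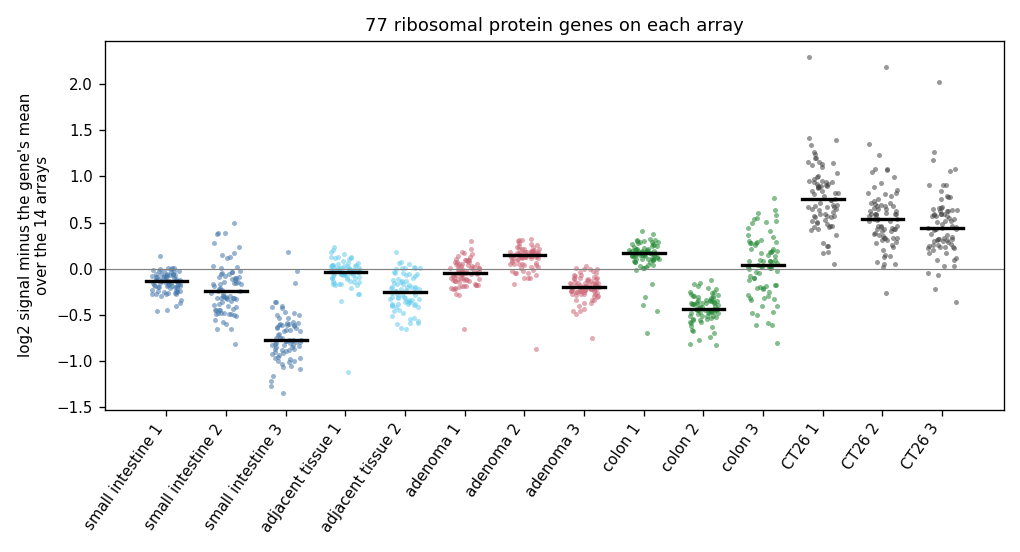
Signal of 77 ribosomal protein genes on each of the 14 arrays (x axis), as the log2 signal minus the gene's own mean over all arrays (y axis). Points are genes and black lines the median of an array, which is 0.44 to 0.76 on the CT26 arrays, -0.77 on small intestine replicate 3 and -0.43 to 0.16 on the other tissue arrays.

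Measured by Pearson's r over the 14 arrays, the correlation of a gene with the median of the other genes had a median of 0.94 and was above 0.9 for 53 of 77. After the group means were taken out, the median r was 0.91, so that arrays of one group also differed in step. These correlations share arrays and scaling and are given as a description. They were not computed for other genes, so they do not show a trait particular to this family. *Rps14* had the lowest value (-0.09, and 0.76 without group means), followed by *Rpl41* (0.40), *Rps12* (0.46), *Rps27l* (0.47) and *Rpsa* (0.47). Within groups, the median SD of ribosomal protein genes was 0.355 in small intestine and 0.350 in colon, but 0.174 in adenomas, 0.164 in CT26 and 0.147 in adjacent tissue. The same SD over all 16023 genes was 0.267, 0.376, 0.153, 0.318 and 0.176.

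**Figure D2:**
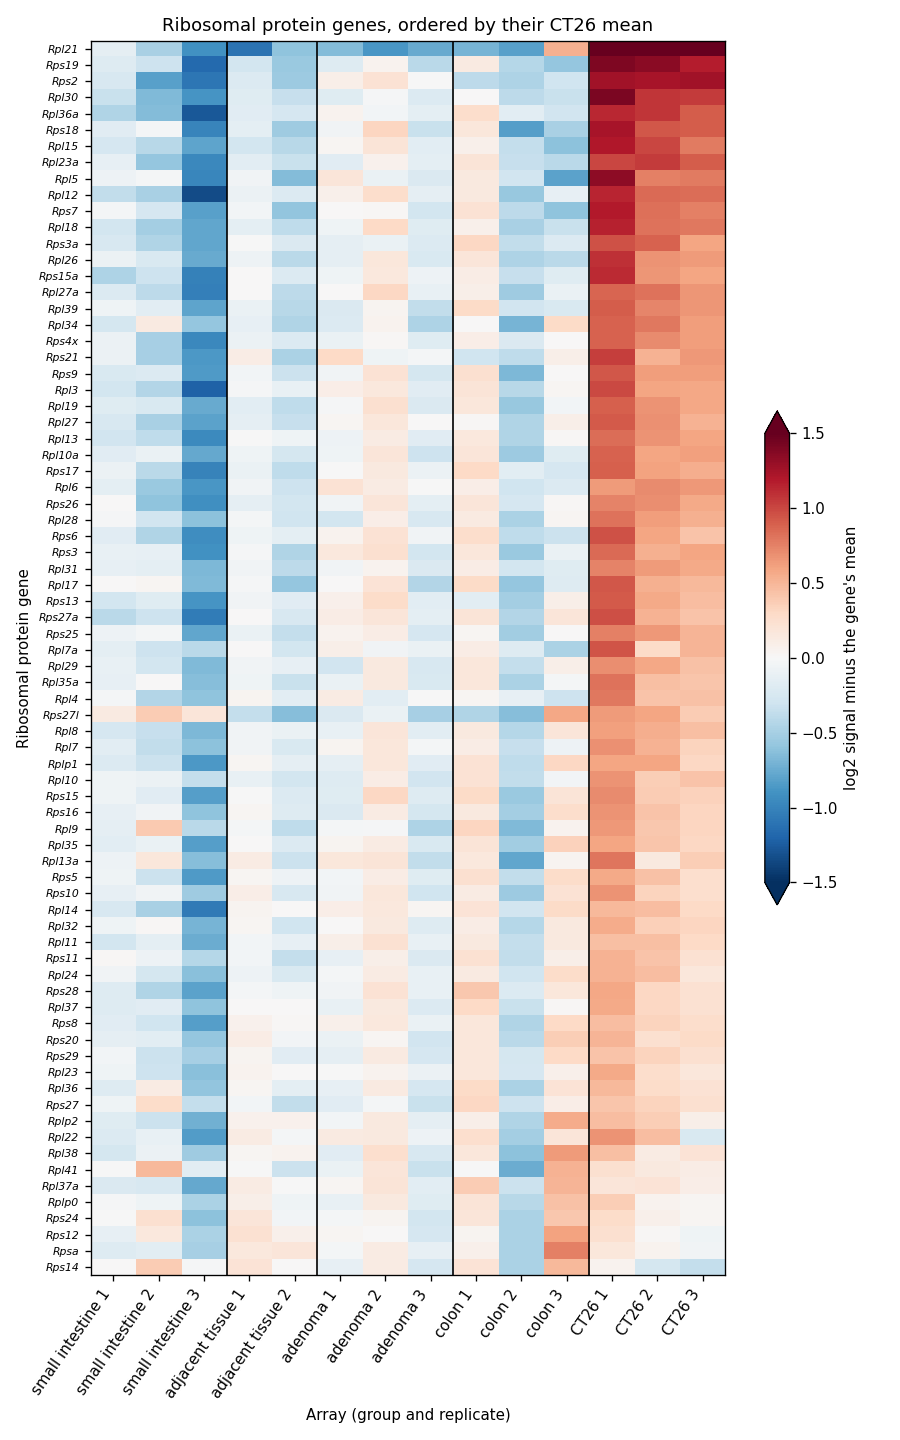
Signal of 76 of the 77 ribosomal protein genes (rows, ordered by the CT26 mean) on each array (columns), as the log2 signal minus the gene's mean over the 14 arrays, with colors ending at ±1.5 log2. *Rpl21*, *Rps19*, *Rps2* and *Rpl30* stand at the top, and *Rps14*, *Rpsa*, *Rps12* and *Rps24*, which were not called between CT26 and colon or adenomas, at the bottom.

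The comparison of adenomas with healthy small intestine sets tumor against normal tissue of other animals. By the sample list the adenomas came from 1 APCmin/+ mouse. Tumor, genotype and animal therefore cannot be told apart here, and by that list the spread between adenomas is that within an animal. Most ribosomal protein genes had the higher mean in adenomas, but few passed the test. The median difference was 0.339 (log2, quartiles 0.178 and 0.488), against -0.146 over all 22094 genes tested, and 71 of the 77 differences were above 0. Within slide 1 the median was 0.334 and within slide 2 it was 0.381. With limma, 6 of 77 were called higher (7.79%), while 22.8% of all genes were, and 1 was called lower (1.3%), while 29.9% of all genes were. No gene reached the thresholds of the methods, a log2 difference of 1.2 and an adjusted p of 0.01, which 11.3% of all genes passed upward. Every adenoma array lay above every small intestine array for 30 of 77 genes, and this was so for 28% of all genes. The reverse held for 1 (*Rps27l*), and for 37.2% of all genes. The large and the small subunit had medians of 0.318 (46 genes) and 0.374 (31 genes).

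Cell type markers differed between the same arrays. All 8 proliferation markers rose in adenomas, from 0.00545% to 0.0161% of the summed signal in small intestine to 0.0331% to 0.0413%. Of 10 enterocyte markers, 7 fell, from 0.208% to 0.655% of the signal to 0.0617% to 0.0907%, and of 8 epithelial markers 1 rose and 5 fell. All of these 3 lists were above background on each of the arrays of both groups. Of 6 smooth muscle markers 4 fell (median difference -1.411), of 4 T cell markers 3 fell (median -1.905), and the 3 of 6 striated muscle markers that were tested fell (median -1.991). Of 7 colonocyte markers tested 3 rose and 1 fell, and of 2 B cell markers tested 1 rose. The part of these cell types in the differences of ribosomal protein genes was not tested.

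The 6 genes called higher were *Rps2*, *Rpl12*, *Rpl36a*, *Rpl14*, *Rpl6* and *Rpl27*, of which only *Rps2* belongs to the small subunit. With slide as a block, limma called *Rps2* alone of the 77. *Rps2* encodes a protein near the channel where the message enters the ribosome. Its probe (NCBI37/mm9, chr17:24857583-24857642) had 7.58, 7.0 and 6.73 in small intestine and 7.90, 8.03 and 7.81 in adenomas. All adenoma arrays were thus above all small intestine arrays, by 0.81 on average (standard error 0.241, limma adjusted p = 0.0268), or 1.76-fold. Its dimmer probe gave 1.39 (limma adjusted p = 0.0123). *Rpl12*, a protein at the base of the stalk, had 8.05, 7.93 and 7.08 in small intestine and 8.5, 8.69 and 8.29 in adenomas. The groups did not overlap, and the difference was 0.81 (standard error 0.283, limma adjusted p = 0.0476), with replicate 3 the lowest small intestine array. The X-linked *Rpl36a* had 6.53, 6.32 and 5.71 in small intestine and 7.03, 6.93 and 6.83 in adenomas, a difference of 0.74 (standard error 0.238, limma adjusted p = 0.035). The large subunit genes *Rpl14*, *Rpl6* and *Rpl27* were higher by 0.69, 0.64 and 0.57, without overlap of the groups. *Rpl6* had 4 probes tested, and 1 of them pointed the other way (-0.48, not called).

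*Rps27l* was the only one of the 77 genes called lower in adenomas. It encodes a close paralogue of Rps27 and is known as a target of p53. Its signal was 6.82, 7.07 and 6.87 in small intestine, 6.33 and 6.04 in adjacent tissue, 6.47, 6.58 and 6.19 in adenomas, 6.23, 6.05 and, on replicate 3, 7.27 in colon, and 7.32, 7.28 and 7.06 in CT26. The adenoma arrays lay below all small intestine arrays, with a difference of -0.51 (standard error 0.177, limma adjusted p = 0.046). This call rested on the scaling and on the model. The difference was -0.13 on the table normalized by the authors, -0.24 after quantile normalization, -0.41 with normexp and -0.42 with median scaling, and it passed the test in none of these. It stayed at -0.51 but did not pass with slide as a block (limma adjusted p = 0.0505), with the replicate number as a block (limma adjusted p = 0.0701), in 1 fit of all groups (limma adjusted p = 0.178) or with every probe tested (limma adjusted p = 0.141). When 1 array was left out, it passed only without small intestine replicate 1. Both adjacent arrays lay below small intestine too (-0.74), the only gene of the 77 without overlap in this direction (31.8% of all genes), which did not pass the test (limma adjusted p = 0.0953). *Rps27* itself had a difference of -0.12 between adenomas and small intestine (limma adjusted p = 0.641). Its probe lies on chromosome 9 in the files, whereas RefSeq places the gene on chromosome 3, so the probe may read a near-identical copy and its values are uncertain. The same holds for *Rps29*, while for 77 of 80 genes the probe and the gene were on the same chromosome. Ribosomal protein genes have many processed pseudogenes, and reads of such copies by the probes were not tested.

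The number of calls rested on single arrays and on the scaling. The limma fit called 0 genes without small intestine replicate 3, where the median difference was 0.157, and 21 without small intestine replicate 1. On the table that the authors had normalized between arrays, 50 genes were called higher and 0 lower, with a median of 0.700, while 26.4% of all genes were called higher and 25% lower.

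**Figure D3:**
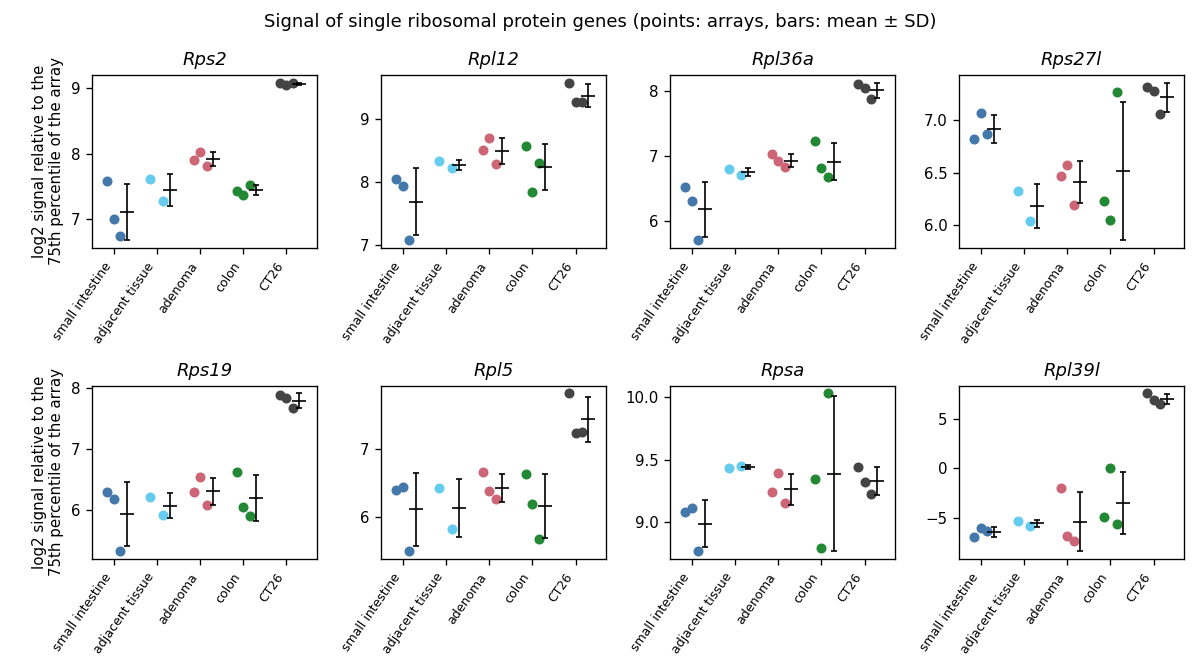
Log2 signal relative to the 75th percentile of the array (y axis, a scale of its own in each panel) for 8 ribosomal protein genes in the 5 groups. Points are arrays and bars the mean ± SD, and CT26 lies above the tissues for *Rps2*, *Rpl12*, *Rpl36a*, *Rps19*, *Rpl5* and *Rpl39l*, but within their range for *Rpsa*.

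No ribosomal protein gene was called between adenomas and the tissue beside them. Limma called 0 of 77, of which 1 (*Rps2*) had an unadjusted p under 0.05, while 10.3% of all genes were called higher and 9.71% lower. The median difference was 0.094 (quartiles 0.006 and 0.199). On slide 1, 23 of 77 genes were higher in adenomas (median -0.091), and on slide 2, 73 of 77 (median 0.388), so the direction was not the same on both slides. *Rps2* had the largest difference, with 7.61 and 7.27 in adjacent tissue and 7.90, 8.03 and 7.81 in adenomas (0.47). Its adenoma arrays lay above both adjacent arrays, as for 8 of 77 genes (29.4% of all genes were without overlap in this direction), and 2 of 77 lay below (27.6% of all genes). Adjacent tissue lay above small intestine in the mean of 67 of 77 genes. The median was 0.255, against -0.109 for all genes. Limma called 0 of 77, while 0.998% of all genes were called higher and 0.684% lower, and 1 of 77 (*Rps27l*) had an unadjusted p under 0.05. Both adjacent arrays lay above all small intestine arrays for 23 of 77 genes (21.2% of all genes). Within slide 1 the median was 0.418 and within slide 2 it was 0.020.

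Colon was compared with small intestine as one normal tissue with another. The median difference was 0.279, against -0.086 over all genes, and 72 of 77 genes had the higher mean in colon. Limma called 0 of 77 (1 had an unadjusted p under 0.05), and of all genes 0.223% were called higher and 0.368% lower. Colon lay above small intestine without overlap for 1 of 77 genes (11.7% of all genes), and below it for 0 (17.6% of all genes). The 1 gene was the X-linked *Rpl36a*, named after its values were seen, with 7.24, 6.82 and 6.69 in colon. Without colon replicate 3, limma still called 0 of 77, with a median of 0.251, while 11.3% of all genes were then called higher and 12.9% lower. Within slide 1 the median was 0.033 and within slide 2 it was 0.363.

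**Figure D4:**
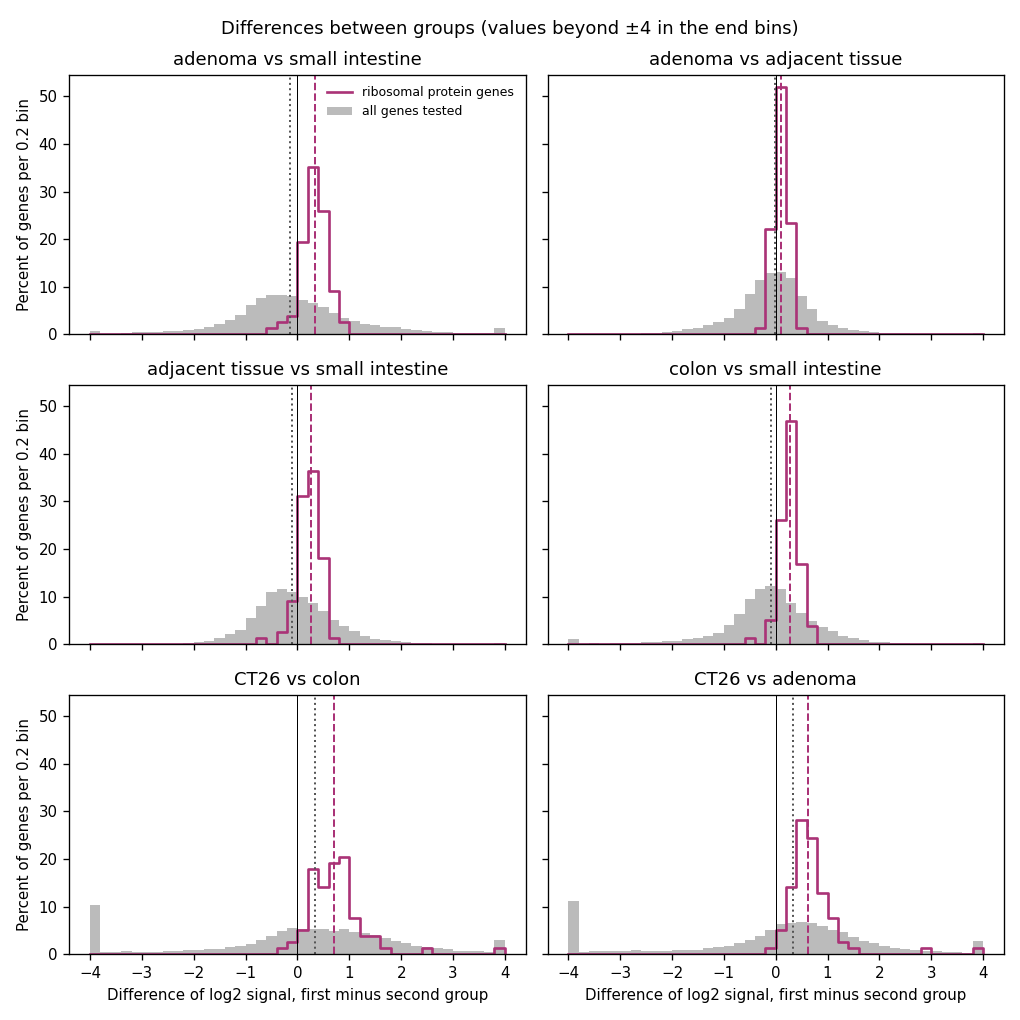
Distribution of the differences of log2 signal (x axis, first minus second group, values beyond ±4 in the end bins) in 6 comparisons, as the percent of genes in bins of 0.2 (y axis), for ribosomal protein genes (line) and all genes tested (gray bars). Broken lines mark the median of the former and dotted lines that of the latter, and the ribosomal protein genes form a narrower peak above 0 in each panel, at 0.339, 0.094, 0.255, 0.279, 0.698 and 0.614.

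Relative to the 75th percentile of the array, most ribosomal protein genes had a higher mean in CT26 cells than in colon. As a share of the summed signal of an array the 2 groups overlapped (below). The median difference of the 78 genes tested was 0.698 (quartiles 0.372 and 0.890), against 0.338 over all genes, and 75 of these differences were above 0. Limma called 28 (35.9%) higher and 0 lower. Of all 21692 genes tested, 33.2% were called higher and 20.3% lower, so the share called higher was near that of the array as a whole. Genes whose CT26 arrays lay above all colon arrays numbered 55 of 78 (39.8% of all genes), and 0 lay below (23.9% of all genes). The counts of calls and of genes without overlap in CT26 include *Rpl39l*, which entered through its CT26 arrays alone and is no support. Among the 77 genes above background on all arrays, 54 were without overlap (70.1%, and 43.3% of all 16023 such genes). Without colon replicate 3, limma called 25 higher and 0 lower, with a median of 0.713, while 32.5% of all genes were called higher. Within slide 1 the median difference was 1.037 (2 CT26 arrays and 1 colon array) and within slide 2 it was 0.493. At the thresholds of the methods 7 were called, among them *Rpl39l*, *Rpl21*, *Rps2*, *Rps19*, *Rpl30* and *Rpl15*, and 21.5% of all genes passed them upward.

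*Rps2* had 7.43, 7.36 and 7.52 in colon and 9.08, 9.05 and 9.08 in CT26. The arrays of each group lay close together and far from the other group, with a difference of 1.64 (standard error 0.255, limma adjusted p = 0.00133), and of 1.68 without colon replicate 3 (limma adjusted p = 0.00151). Its dimmer probe gave 0.56 in the same direction (limma adjusted p = 0.382). *Rps19*, whose human counterpart is mutated in Diamond-Blackfan anemia, had 6.63, 6.06 and 5.91 in colon and 7.89, 7.84 and 7.67 in CT26, without overlap. The difference was 1.6 (standard error 0.302, limma adjusted p = 0.00337), or 3.02-fold, and 1.45 (limma adjusted p = 0.00562) without colon replicate 3. *Rpl30* was higher by 1.42, *Rps18* by 1.40 and *Rpl15* by 1.29. Without that array they were higher by 1.37, 1.35 and 1.13, and each was still called. *Rpl21* was higher by 2.49 (limma adjusted p = 0.00171, and 2.92 without colon replicate 3), but its probe was dim, with 2.25, 2.15 and 1.98 in CT26 and -0.73, -0.85 and 0.50 in colon, and its other probe gave 0.52 (limma adjusted p = 0.65). The probes also disagreed between adenomas and small intestine (-0.25, not called, and 1.13, limma adjusted p = 0.0151).

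The comparison of CT26 with adenomas sets a tumor cell line against primary tumors. All but *Rps14* of the 78 genes tested had the higher mean in CT26. The median difference was 0.614 (quartiles 0.428 and 0.806), against 0.339 over all genes, and limma called 50 higher (64.1%) and 0 lower. Over all genes 38.8% were called higher and 24.9% lower. The CT26 arrays lay above all adenoma arrays for 67 of 78 genes (44.2% of all genes) and below them for 0 (27.5% of all genes). Here too *Rpl39l* is counted through its CT26 arrays alone. Among the 77 genes above background on all arrays, 66 were without overlap (85.7%, and 50.6% of all 16023 such genes). Within slide 1 the median was 0.729 and within slide 2 it was 0.394. At the thresholds of the methods, 5 were called, against 22.1% of all genes. Among these were *Rpl39l*, *Rpl21* (2.92), *Rps19* (1.48) and *Rpl30* (1.31). *Rps2* had a difference of 1.16 (standard error 0.181, limma adjusted p = 0.000857), and its dimmer probe gave -0.46 (limma adjusted p = 0.073). Both CT26 comparisons use the same CT26 arrays and are not independent. The proliferation list moved with these groups, with 8 of 8 markers higher in CT26 than in colon (7 of 8 without colon replicate 3) and 7 of 8 higher than in adenomas. These markers, all above background on every array, took 0.0548% to 0.0656% of the signal in CT26, 0.0331% to 0.0413% in adenomas, 0.0190% to 0.0273% in colon, 0.0186% to 0.0228% in adjacent tissue and 0.00545% to 0.0161% in small intestine. Markers of tissue cells fell in CT26. All 8 epithelial markers were lower than in colon and than in adenomas (medians -12.079 and -11.996), and so were all 6 smooth muscle markers (medians -10.156 and -7.711) and the B cell markers tested, 5 of 5 and 2 of 2. Of the enterocyte markers tested, 3 of 7 fell against colon and 10 of 10 against adenomas, and of the colonocyte markers 2 of 5 and 5 of 7, with 1 higher than in adenomas. Of 3 T cell markers tested 1 and 2 fell, and of 3 striated muscle markers 2 and 2, with 1 of these higher than in adenomas. With colon replicate 3 left out, the counts against colon were 8 of 8 epithelial, 6 of 6 smooth muscle, 5 of 5 B cell, 10 of 10 colonocyte, 1 of 3 T cell and 2 of 3 striated muscle markers lower, with 4 of 7 enterocyte markers lower and 2 higher. On CT26 arrays 3 to 4 of 8 epithelial, 3 of 6 smooth muscle, 1 to 2 of 6 B cell and 3 of 10 colonocyte markers were above background. This was so for 4 to 5 of 10 enterocyte, 2 to 3 of 4 T cell and 1 of 6 striated muscle markers. Markers not above background on all CT26 arrays entered these tests through the tissue arrays alone, so that their calls are no support. The medians given for them are in part differences to the background. The part of dividing cells and of these tissue cells in the differences of ribosomal protein genes was not tested.

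How far CT26 stood above the tissues depended on the scaling. After quantile normalization, limma called 17 higher and 1 lower, *Rps14*, of 78 against adenomas, and the median was 0.172, below that of all genes (0.254). Against colon it called 9 higher with a median of 0.374 (0.307 over all genes). As a share of the summed signal of an array, the 80 genes took 6.37% to 6.67% in CT26, 5.90% to 6.42% in adenomas, 5.25% to 6.75% in colon, 5.48% to 5.89% in adjacent tissue and 3.05% to 4.92% in small intestine, so by this measure CT26 overlapped both colon and adenomas.

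The paralogue *Rpl39l* was well above background on all CT26 arrays and on few others. It encodes a copy of Rpl39 known from male germ cells. Its probe (NCBI37/mm9, chr16:10174657-10174716) read 7.51, 6.85 and 6.5 in CT26. It was -4.88, 0.09 and -5.59 in colon, -1.92, -6.81 and -7.25 in adenomas, -5.26 and -5.73 in adjacent tissue and -6.92, -5.95 and -6.26 in small intestine. Only colon replicate 2 and adenoma replicate 1 were well above background among the tissue arrays, so the other values are at the level of the background. The size of the difference was therefore only estimated. A tissue array below background was set to the lowest signal well above background on that array, or to its own where that was higher. The estimate is of the difference of the mean log2 signals of the groups and not of single arrays. By it the CT26 mean was 779-fold above that of colon, 601-fold without colon replicate 3, and 1880-fold above that of adenomas. The lowest signal well above background is not a detection limit. On CT26 replicate 3, *Rpl10l* read -4.92, above that array's lowest of -5.83, and was not well above background. The folds are thus not strict lower bounds. Colon replicate 2 (0.09) and adenoma replicate 1 (-1.92) lay nearer to the CT26 arrays (6.5 to 7.51) than these folds. *Rpl39l* entered the test through its CT26 arrays alone, so that its call there is no support. Its parent, the X-linked *Rpl39*, was higher in CT26 than in colon by 0.85 (limma adjusted p = 0.0406), a call lost without colon replicate 3 (0.77, limma adjusted p = 0.0647), and than in adenomas by 0.96 (limma adjusted p = 0.00403). *Rps27l* was higher in CT26 than in adenomas by 0.81 (standard error 0.202, limma adjusted p = 0.00921). Against colon it differed by 0.71 (limma adjusted p = 0.157), and by 1.08 (limma adjusted p = 0.0129) without colon replicate 3. *Rps27* was higher than in adenomas by 0.50 (limma adjusted p = 0.0497), with the same doubt about its probe. *Rpl10l*, a copy of *Rpl10* known from spermatogenesis, had -2.69 on CT26 replicate 1, its only array above background, and -7.32 to -4.65 on the others. *Rpl3l*, the copy of *Rpl3* used in heart and skeletal muscle, was at -7.05 to -5.6 and above background on no array. *Rpl3* itself was called higher in CT26 against adenomas (0.70, limma adjusted p = 0.0219) and not against colon (0.79, limma adjusted p = 0.0601, and 0.83 without colon replicate 3, limma adjusted p = 0.0625). Of 6 striated muscle markers, 3 were well above background on every tissue array and 1 on every CT26 array, with array medians of -5.14 to -2.82 and -6.86 to -5.6.

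The stalk recruits elongation factors to the large subunit. Of its 3 genes only *Rplp1* was called, and in 1 comparison. *Rplp0* had a difference of 0.08 between CT26 and colon and of 0.20 between CT26 and adenomas, neither called. *Rplp2* had 0.25 and 0.32, also not called. Without colon replicate 3 the differences from colon were 0.26 for *Rplp0*, 0.49 for *Rplp2* and 0.59 for *Rplp1*, and none was called. *Rplp1* was higher in CT26 than in adenomas (0.55, limma adjusted p = 0.0443), and was not called against colon (0.46, limma adjusted p = 0.246). Against small intestine the adenoma arrays lay above for *Rplp1* (0.42) and *Rplp2* (0.39) without passing the test, and *Rplp0* had 0.14. Whether the stalk genes differ less than other genes was not tested. Their probes had mean signals over the 14 arrays of 9.47 (*Rplp0*), 8.41 (*Rplp1*) and 9.15 (*Rplp2*), and CT26 differences tended to be smaller at higher mean signal (below).

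Several ribosomal proteins act outside protein synthesis, among them those that bind Mdm2 and so stabilize p53. *Rpl5*, which joins Rpl11 and the 5S RNA in a particle of this kind, had 6.63, 6.19 and 5.68 in colon, 6.66, 6.38 and 6.26 in adenomas and 7.82, 7.24 and 7.26 in CT26. The CT26 arrays were above all others, by 1.27 against colon (limma adjusted p = 0.0174, and 1.03 without colon replicate 3, limma adjusted p = 0.031) and 1.0 against adenomas (limma adjusted p = 0.00712). *Rpl11* had 0.43 and 0.33 in the same comparisons and was called in neither. *Rps7* was called in both (1.19 and 1.01) and *Rpl23* in neither (0.34 and 0.34). *Rps3*, known for a part in DNA repair, *Rps6*, the substrate of the S6 kinases, and *Rps27a*, which is made as a fusion with ubiquitin, were called against adenomas (0.61, 0.58 and 0.59) and not against colon (0.82, 0.80 and 0.66). *Rpl13a* and *Rpl22* were called in neither. When colon replicate 3 was left out, *Rps7* was still called against colon (1.02), and *Rpl11* (0.51), *Rpl23* (0.37), *Rps3* (0.85), *Rps6* (0.71), *Rps27a* (0.77), *Rpl13a* (0.75) and *Rpl22* (0.43) were not. None of these genes was called between adenomas and small intestine, where *Rps27a* (0.64) and *Rps6* (0.59) had the largest differences.

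*Rpsa*, which also serves as a laminin receptor, and *Rps14*, whose human counterpart is lost in the 5q- syndrome, did not follow the other genes. Over the 77 genes above background on all arrays, CT26 differences tended to be smaller at higher mean signal. Spearman's rank correlation was -0.78 against colon and -0.74 against adenomas, while over all 16023 such genes it was 0.12 and 0.07. The mean signal over the 14 arrays was 9.48 for *Rps14* and 9.27 for *Rpsa*, but 6.49 for *Rps19* and -0.04 for *Rpl21*. The part of probe brightness in these differences was not tested. *Rpsa* had 9.34, 8.79 and, on replicate 3, 10.03 in colon and 9.44, 9.32 and 9.22 in CT26. The groups overlapped, with a difference of -0.06 (limma adjusted p = 0.9). Colon replicate 3 set the sign of this value, which was 0.26 without it (limma adjusted p = 0.491). *Rps14* had 9.69, 9.01 and 9.97 in colon, 9.36, 9.60 and 9.23 in adenomas, and 9.53, 9.22 and 9.12 in CT26. Its differences were -0.26 against colon and -0.11 against adenomas, with overlap and without passing the test, and -0.06 against colon without replicate 3. It had the lowest difference of the genes tested in both CT26 comparisons, with and without that array. Among the X-linked genes in adenomas against small intestine, *Rpl36a* was called and *Rps4x* (0.43), *Rpl39* (0.16) and *Rpl10* (0.04) were not. In CT26 all 4 were called higher against adenomas, with *Rpl36a* at 1.08, *Rpl39* at 0.96, *Rps4x* at 0.83 and *Rpl10* at 0.61. In this comparison 64.1% of the ribosomal protein genes tested and 38.8% of all genes were called higher. Against colon without replicate 3, *Rpl36a* (0.99) and *Rps4x* (0.80) were called, and *Rpl39* (0.77) and *Rpl10* (0.56) were not.

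Other genes of the translation machinery were read from lists chosen by function. The ribosome assembly list holds 19 genes of nucleolar processing and RNA polymerase I. In adenomas 17 of 19 (89.5%) rose against small intestine, where 22.8% of all genes did, with a median of 1.492 beside the 0.339 of ribosomal proteins. Against adjacent tissue 5 of 19 (26.3%) rose, where 10.3% of all genes did, with a median of 0.619. Examples against small intestine are *Ncl*, the nucleolar protein nucleolin (1.62, limma adjusted p = 0.00203), and *Fbl*, the methylase fibrillarin (1.72, limma adjusted p = 0.00358). In CT26 19 of 19 rose against colon (33.2% of all genes), with a median of 2.932, and 19 of 19 without colon replicate 3 (32.5% of all genes), with a median of 2.986. Against adenomas 18 of 19 (94.7%) rose, where 38.8% of all genes did, with a median of 2.142. *Nop56* had 3.81 against colon, 4.05 without colon replicate 3, and 2.91 against adenomas. The summed share of signal of the list was 0.173% to 0.253% in CT26, 0.0927% to 0.144% in adenomas, 0.0659% to 0.0680% in adjacent tissue, 0.0464% to 0.0578% in colon and 0.0289% to 0.0456% in small intestine, without overlap between CT26, adenomas and the other groups.

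The list labelled translation factors holds 17 genes whose messages are of the same 5' class. Beside initiation and elongation factors and *Pabpc1*, it includes *Npm1*, *Hnrnpa1*, *Nap1l1*, *Naca*, *Btf3* and *Tpt1*, which are not translation factors in the strict sense. Of the 17, 6 rose (35.3%, and 22.8% of all genes) and 1 fell (5.88%, and 29.9% of all genes) in adenomas against small intestine, with a median of 0.131. In CT26 12 rose against colon (70.6%, and 33.2% of all genes), with a median of 1.080, and 11 (64.7%) without colon replicate 3, with a median of 1.055. Among these 11 were *Npm1*, *Nap1l1*, *Hnrnpa1*, *Naca* and *Btf3*, so the shares describe the list and not translation factors alone. Against adenomas 11 rose (64.7%, and 38.8% of all genes), with a median of 0.958. *Npm1*, a nucleolar chaperone, rose by 1.34 in adenomas and 1.92 (against colon, and 1.95 without replicate 3) and 1.2 (against adenomas) in CT26, whereas the elongation factor gene *Eef1a1* was called in none of these (0.08, 0.39, 0.43 without colon replicate 3, and 0.35). Of 75 mitochondrial ribosomal proteins tested, 7 rose (9.33%, and 22.8% of all genes) and 10 fell (13.3%, and 29.9% of all genes) in adenomas against small intestine, with a median of -0.053. In CT26 34 rose (45.3%, and 33.2% of all genes) and 1 fell against colon, with a median of 0.679. These counts were the same without colon replicate 3, with a median of 0.771. Against adenomas, 42 rose (56%, and 38.8% of all genes) and 2 fell, with a median of 0.673. The difference between mitochondrial and cytosolic ribosomal proteins was not tested. Of 6 ribosome components outside the naming rule, 2 rose in CT26 against colon (33.3%, and 33.2% of all genes), *Rpl22l1* (1.47) and *Rpl7l1* (1.94). Without replicate 3 they had 1.47 and 2.14. *Rpl36al* was then called too (0.98, limma adjusted p = 0.0324), which made 3 of 6 (50%, and 32.5% of all genes). Against adenomas 3 of 6 rose (50%, and 38.8% of all genes). In adenomas against small intestine 0 rose and 1 fell (16.7%, and 29.9% of all genes). This was *Fau*, a ubiquitin-like fusion with Rps30 (-0.75, limma adjusted p = 0.0261).

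Among 15 regulators, 3 rose (20%, and 22.8% of all genes) and 2 fell (13.3%, and 29.9% of all genes) in adenomas against small intestine. Those that rose were *Myc* (2.06, limma adjusted p = 0.00171), *Mycn* (2.33) and *Trp53* (0.93), and those that fell were *Cdkn1a*, the p53 target p21 (-1.99), and *Rps6kb2*, an S6 kinase (-1.04). In CT26 10 of 14 tested rose against colon (71.4%, and 33.2% of all genes), with *Eif4ebp1*, the translation repressor that mTOR inactivates, at 4.23 (limma adjusted p = 3.49e-05), *Myc* at 3.67, *Eif4e* at 2.48, *Trp53* at 2.08 and *Mdm2* at 2.0. Without colon replicate 3, 10 of 15 rose (66.7%) and 1, *Mycn*, fell, with *Eif4ebp1* at 4.46, *Myc* at 3.3, *Eif4e* at 2.38, *Trp53* at 2.22 and *Mdm2* at 2.22. Against adenomas 13 of 15 rose (86.7%, and 38.8% of all genes) and 1, *Mycn*, fell. On each CT26 array 14 of the 15 were above background. *Mycn* entered both of these tests through its colon or adenoma arrays alone, so that its calls are no support.

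**Figure D5:**
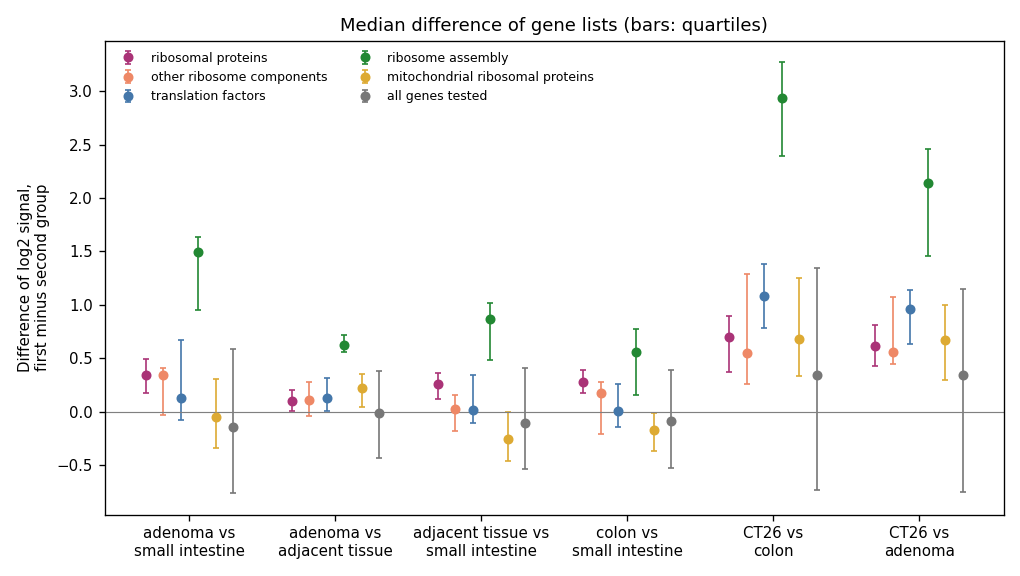
Median difference of log2 signal (y axis) of 5 gene lists and of all genes tested in 6 comparisons (x axis, first minus second group), with bars from the lower to the upper quartile. Ribosome assembly genes had the largest median of these lists in each comparison (1.492 in adenomas against small intestine and 2.932 in CT26 against colon), while ribosomal proteins had 0.339 and 0.698.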

How the data were processed

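RNA of 14 samples was labelled with Cy3 and hybridized to Agilent SurePrint G3 mouse arrays. Per array, the authors deposited a scanner file of Feature Extraction 10.7.3.1, in which the processed signal is a background-subtracted intensity. A further deposited table holds log2 values normalized between arrays, by a method not given in the sources used here, and its 28 other columns per sample and its fold changes and p-values for 7 pairs of groups were not used.

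Control and outlier spots were left out. The log2 signal was set against the 75th percentile of its array, and groups came from the labels. Each of 6 pairs of groups was fitted on its own arrays (limma 3.58.1, R 4.3.3, functions lmFit and eBayes). A probe was tested if all arrays of either group read it well above background, and p-values were adjusted over them by Benjamini-Hochberg. A gene was called at an adjusted p of at most 0.05 on its brightest probe. With 2 or 3 arrays per group, their number limits the precision. Lists are described by counts and medians, with no test. Named by rule were the 5 genes with the largest called difference in each comparison and direction, stalk, paralogue and X-linked genes and those with roles outside translation. Other genes were named after their values were seen, and 1 gene is counted but not reported here by name. The genes, lists and tests were chosen with earlier results of these data known. The fit was checked on simulated data.

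Alternatives were the authors' table, normexp (offset 50), quantile and median scaling, other filters, 1 fit of all groups, slide or replicate number as a block, the mean over a gene's probes, the thresholds of the methods, and the omission of each array.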

Additional observations from a re-analysis of the deposited data

How the results depend on the processing

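The medians stayed above 0 in all alternatives but 1, while counts of calls moved. Between adenomas and small intestine (7 called, 6 higher and 1 lower, median 0.339), limma called 50 on the authors' table (median 0.700), 36 after quantile normalization (median 0.651) and 12 with normexp, each with 0 lower, 12 with the mean of all probes of a gene, 1 (*Rps2*) with slide as a block, 0 with every probe tested (8 had an unadjusted p under 0.05) and 0 at the thresholds of the methods. With 1 array left out the count ran from 0 to 21 and the median from 0.157 to 0.477: 0 without any 1 adenoma array or small intestine replicate 3, 1 (*Rps15a*) without replicate 2 and 21 without replicate 1. Between adenomas and adjacent tissue (0 called, median 0.094), *Rps2* was called on the authors' table (1 gene, median 0.258) and with median scaling (1 gene, median 0.310). With 1 array left out the median ran from -0.011 (without adjacent tissue replicate 2) to 0.210, the lone adjacent array being assumed to vary like the others, and the count stayed at 0. Between CT26 and colon (28 called, median 0.698), limma called 9 after quantile normalization (median 0.374), 67 with median scaling (median 1.246), 12 with every probe tested, 47 in 1 fit of all groups, 16 with slide as a block and 7 at the thresholds of the methods. With 1 array left out it called 12 (without CT26 replicate 1 or colon replicate 2) to 25, with 14 without CT26 replicate 2 or 3, and the median ran from 0.575 to 0.805. Between CT26 and adenomas (50 called, median 0.614), it called 32 on the authors' table (median 0.287), 18 after quantile normalization (median 0.172), 29 with every probe tested and 5 at the thresholds of the methods, and the median was 0.992 with median scaling. With 1 array left out the count ran from 21 (without adenoma replicate 3, and 25 without replicate 1) to 40 and the median from 0.523 to 0.698. Against small intestine, adjacent tissue and colon had 0 called in each alternative, with medians of 0.097 to 0.351 and 0.114 to 0.456 when 1 array was left out. Median scaling moved the median of all genes to 0.886 between CT26 and colon and to 0.717 between CT26 and adenomas, and the all-gene split of calls from 33.2% higher and 20.3% lower to 47.4% and 16.7% in the former. It also moved that split from 10.3% and 9.71% to 17.3% and 6.09% between adenomas and adjacent tissue, from 0.998% and 0.684% to 2.2% and 6.57% between adjacent tissue and small intestine, and from 0.223% and 0.368% to 0.368% and 1.31% between colon and small intestine. The cause of these changes was not tested.

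Arrays of the same replicate number did not deviate together in every pair (correlations from -0.125 to 0.291) and nothing says that a number marks a shared batch. The titles number the adjacent arrays 2 and 3, and by these numbers the correlations were 0.036 and 0.026 with adenomas and -0.141 and 0.207 with small intestine. With the number as a replicate block, limma called 15 between CT26 and colon, 37 between CT26 and adenomas, 5 between adenomas and small intestine and 0 in the other comparisons. With the title number as a replicate block it called 0 between adenomas and adjacent tissue, with a median of 0.101.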
